A study of Danio rerio with 6 samples.

Results

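The ferritin and iron handling genes described here are 10 gene names, chosen by name with earlier results of these data known. They include the ferritin heavy chain genes *fth1a*, *fth1b*, *fthl27* and *fthl28*, the transferrin gene *tfa* and the transferrin receptors *tfr1a* and *tfr1b*. The others are the iron exporter *slc40a1*, the ferroxidase *cp* and the haem oxygenase *hmox1a*. The 10 names matched 11 of the 32520 listed entries, because *fthl27* is listed under 2 Ensembl identifiers. All 11 entries were among the 22824 tested. RNA was sequenced from the dissected heads of zebrafish larvae of the AB strain at 4 dpf, in 3 *tulp1*-dKO samples and 3 wt samples. The *tulp1*-dKO larvae carry CRISPR-Cas9 mutations in both *tulp1a* and *tulp1b*, from 1 mutant line for each gene, and the wt larvae carry neither. The double mutant was made as a model of early-onset retinal degeneration. The study sequenced these libraries to look for mechanisms of the mutant's cilium defect and photoreceptor degeneration, and also for pathways of cell death. The number of heads behind each library, and whether the samples came from separate clutches, are not given in the sources used here, so p-values measure only the spread between these samples.

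Iron enters most cells bound to transferrin, which is taken up by transferrin receptors, and what a cell does not use is stored inside ferritin, a hollow protein shell whose heavy chains oxidise the metal. Ferroportin carries iron out of the cell, ceruloplasmin oxidises it outside the cell so that transferrin can bind it, and haem oxygenase frees it from haem. Free ferrous iron drives lipid peroxidation and is a requirement of ferroptosis, and in animals iron levels act on ferritin and transferrin receptor largely after transcription, through iron regulatory proteins that bind their mRNAs.

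The study followed *cp* and *fthl28* by qRT-PCR as well, and the paper reports both as upregulated in *tulp1*-dKO by that assay. The paper sets this beside stronger iron staining in the photoreceptors and proposes that iron homeostasis was disrupted. The study's primers for these genes are shown because both are described in detail below. The *fthl28* pair also has to tell this gene from the others in a family of neighbouring ferritin genes. Each primer is written 5′ to 3′, with no part marked by capitals.
*cp* forward: gaagagcagcacctgggaat
*cp* reverse: ggggctcaatcactcttggt
*fthl28* forward: agaagggagaccctcatctgt
*fthl28* reverse: agagctgtgtcataagtgtcat

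The authors mapped the reads to GRCz11 and deposited one TPM value per gene and sample, a unit corrected for gene length, so that levels can be set side by side between genes. The values of a sample summed to between 945666 and 948860 TPM, and 25096 to 25304 entries per sample were above 0. TPM keeps no sequencing depth, and error is given here as the variation among the 3 libraries of each genotype. The targeted genes followed the labels: *tulp1a* had 16.0, 14.4 and 15.8 TPM in *tulp1*-dKO against 25.3, 25.0 and 23.7 TPM in wt, and *tulp1b* had 2.71, 2.01 and 2.37 TPM against 13.1, 11.9 and 9.77 TPM. Of 20 photoreceptor marker genes tested, 14 were changed and all 14 were lower, against 1.32% of all genes tested that were changed in either direction. Log2 fold changes were below 0 in 18 of the 20 and above 0 in 2, *crx* (0.09) and *gngt2a* (1.18, limma adjusted p = 0.0566). The summed levels were 3606 to 6660 TPM in *tulp1*-dKO and 16709 to 18211 TPM in wt. Because whole heads were sequenced, fewer cells of a type and less RNA per cell cannot be told apart.

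None of the 11 iron handling entries was changed between *tulp1*-dKO and wt heads. These include *cp* and *fthl28*, which the paper reports as upregulated by qRT-PCR. Both also had higher means in *tulp1*-dKO here, without meeting the call. The call of a change required at least a 2-fold difference in either direction and an adjusted p no greater than 0.05 (limma on log2(TPM + 0.1), Benjamini-Hochberg adjustment over all 22824 genes), and 1.32% of all genes tested met this. None of the 11 passed the adjusted p at any fold change either, which 1.89% of all genes did. Before adjustment, p was 0.05 or less in 3 of 11 (27.3%), with *fthl28* and *tfr1b* higher and *fthl27* lower, against 17.1% of all genes tested. The same 3 entries were those in which the groups did not overlap, against 23.5% of all genes; 2 of the 3 were higher in *tulp1*-dKO, as were 14.6% of all genes, and 1 was lower, as were 8.86%. The median log2 fold change over the 11 entries was 0.10, with 8 above 0 and 3 below, and that of all genes tested was 0.05. With 11 entries these shares rest on few genes, which were chosen with earlier results of these data known.

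**Figure D1:**
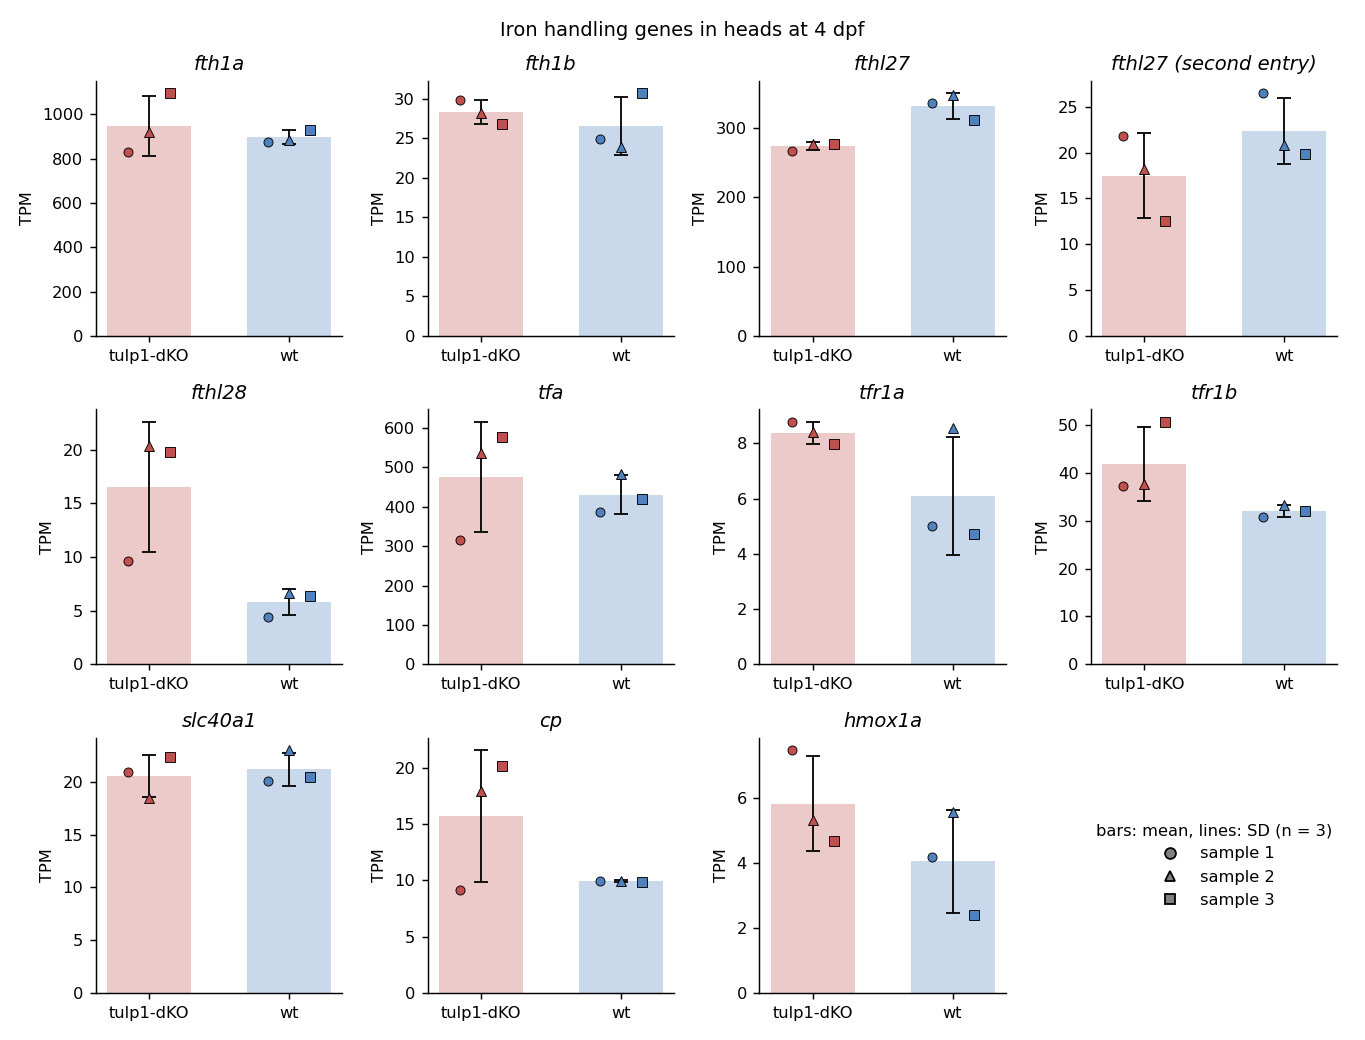
TPM of each iron handling entry in the 3 *tulp1*-dKO samples (left in each panel) and the 3 wt samples (right). Each entry has a panel with its own linear axis. Points are samples, bars are group means and vertical lines are SD. By their axis values, *fth1a*, *tfa* and the main *fthl27* entry are far above the others. Only *fthl28*, the main *fthl27* entry and *tfr1b* show groups that do not overlap.

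The members differed widely in level. In wt, *fth1a* averaged 897 ± 29.5 TPM (SD, n = 3), followed by *tfa* at 431 ± 49.1 TPM and *fthl27* at 331 ± 18.7 TPM. These 3 genes were at or above the 98.2 percentile of mean TPM among the genes tested. A middle group held *tfr1b* at 32.0 TPM, *fth1b* at 26.5 TPM, the second *fthl27* entry at 22.4 TPM and *slc40a1* at 21.2 TPM, and of these the sample range of the second *fthl27* entry overlapped those of *fth1b* and *slc40a1*. *cp* stood apart at 9.93 TPM, and *tfr1a* (6.08 TPM), *fthl28* (5.82 TPM) and *hmox1a* (4.04 TPM) had overlapping ranges at the lower end.

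Among the ferritins, *fth1a* (ENSDARG00000015551), the main heavy chain gene in these heads, had 828, 922 and 1095 TPM in *tulp1*-dKO against 876, 885 and 931 TPM in wt. The *tulp1*-dKO samples lay on both sides of the wt samples, with the lowest and the highest value of all 6. The log2 fold change was 0.07 (SE 0.10, 95% interval −0.17 to 0.31, limma adjusted p = 0.782). Its paralog *fth1b* (ENSDARG00000007975) had 29.9, 28.3 and 26.9 TPM in *tulp1*-dKO against 24.9, 24.0 and 30.7 TPM in wt. The groups overlapped, and the highest value was a wt sample. On the log2 scale *tulp1*-dKO differed from wt by 0.10 (SE 0.12, 95% interval −0.18 to 0.38, adjusted p = 0.721).

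*fthl28* (ENSDARG00000076221), annotated as a ferritin heavy polypeptide-like gene, showed the largest difference of the members. It had 9.58, 20.3 and 19.7 TPM in *tulp1*-dKO against 4.45, 6.66 and 6.36 TPM in wt. All 3 *tulp1*-dKO samples were above all 3 wt samples, and *tulp1*-dKO sample 1 was well below the other *tulp1*-dKO samples. The means were 16.6 ± 6.04 TPM and 5.82 ± 1.2 TPM (SD, n = 3 each). The fitted log2 fold change was 1.43 (SE 0.31, 95% interval 0.70 to 2.17), or 2.70-fold on the log2(TPM + 0.1) scale. Its unadjusted p was 0.00241, rank 706 of the 22824 genes, and its adjusted p of 0.078 (limma, Benjamini-Hochberg) missed the threshold. The call changed when 1 library was left out: without *tulp1*-dKO sample 1 the log2 fold change was 1.79 (SE 0.20) and the adjusted p was 0.0213. Over the samples left out in turn, the adjusted p ran between 0.0213 and 0.232 and the log2 fold change between 1.25 and 1.79.

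*fthl27* (ENSDARG00000031776), a gene of the same type at a far higher level, went the other way. It had 267, 277 and 276 TPM in *tulp1*-dKO against 336, 347 and 311 TPM in wt. All *tulp1*-dKO samples lay below all wt samples and close to one another. The log2 fold change was −0.28 (SE 0.07, 95% interval −0.43 to −0.12), a ratio of 0.826, with an unadjusted p of 0.0043, rank 955 of the genes tested, and an adjusted p of 0.103. The second *fthl27* entry (ENSDARG00000116586) had 21.8, 18.2 and 12.5 TPM in *tulp1*-dKO against 26.5, 20.8 and 19.9 TPM in wt. Here the groups overlapped, and the lowest value was *tulp1*-dKO sample 3. Its log2 fold change was −0.38 (SE 0.22, 95% interval −0.89 to 0.13, adjusted p = 0.434). Summed over both entries, *fthl27* had 289, 295 and 289 TPM in *tulp1*-dKO and 362, 368 and 331 TPM in wt. The sum therefore gave the same order of groups as the main entry alone.

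*fthl28* and *fthl27* lie side by side. In a RefSeq gene table of assembly GRCz12tu, used for names and order and not the assembly of the files, *fthl27*, *fthl28*, *fthl30*, *fthl31* and *fthl29* follow one another on chromosome 3 with no other listed gene between them. Reads that fit several such neighbours, or both entries of one name, may have been divided among them in ways these values do not show, so the split of TPM within the cluster is uncertain. *fthl30*, also annotated as ferritin heavy polypeptide-like, had 46.0, 41.2 and 46.8 TPM in *tulp1*-dKO against 41.2, 30.6 and 39.1 TPM in wt. The groups touched without overlapping and the log2 fold change was 0.28 (adjusted p = 0.336). The main *fthl31* entry (ENSDARG00000094210) had 20.8, 23.5 and 19.1 TPM in *tulp1*-dKO against 29.4, 27.8 and 24.2 TPM in wt, lower in all *tulp1*-dKO samples, with a log2 fold change of −0.36 (adjusted p = 0.194). Its second entry (ENSDARG00000113150) had 6.09, 8.22 and 5.26 TPM in *tulp1*-dKO against 2.74 and 2.60 TPM in wt samples 1 and 2, and is listed at 0 in wt sample 3. The entries of this name thus differed in opposite directions, and their sum of 26.8, 31.7 and 24.4 TPM in *tulp1*-dKO overlapped that of 32.1, 30.4 and 24.2 TPM in wt.

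The summed TPM of the *fth1a*, *fth1b*, *fthl27* and *fthl28* entries was 1156, 1265 and 1430 TPM in *tulp1*-dKO against 1267, 1284 and 1298 TPM in wt. The means of 1284 ± 138 TPM and 1283 ± 15.5 TPM (SD, n = 3 each) were alike, and the *tulp1*-dKO samples were the more spread. Over all 10 ferritin entries in the files, *fth1a* made up 66.6%, 68.0% and 72.1% of ferritin TPM in *tulp1*-dKO and 64.6%, 65.4% and 67.6% in wt. The *fthl27* entries together made up 23.2%, 21.8% and 19.0% in *tulp1*-dKO and 26.7%, 27.2% and 24.0% in wt, a smaller part in every *tulp1*-dKO sample. *fthl28* contributed 0.771%, 1.5% and 1.3% in *tulp1*-dKO and 0.328%, 0.492% and 0.462% in wt. It was thus a small part of the ferritin mRNA in both groups.

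**Figure D2:**
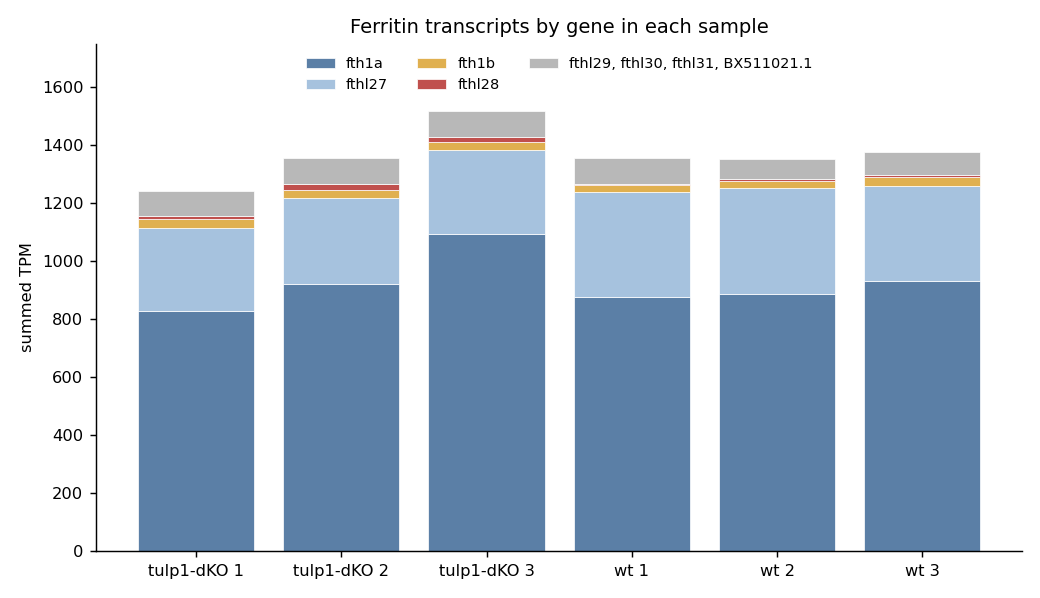
Summed TPM of all 10 ferritin entries in each of the 6 samples, *tulp1*-dKO left and wt right. Bars are stacked by *fth1a*, *fthl27*, *fth1b*, *fthl28* and the other ferritin entries. As a share of this sum, *fth1a* holds 66.6% to 72.1% in *tulp1*-dKO and 64.6% to 67.6% in wt, and *fthl28* at most 1.5% in any sample.

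For iron uptake, *tfr1b* (ENSDARG00000077372), one of the zebrafish transferrin receptor 1 genes, had 37.1, 37.7 and 50.6 TPM in *tulp1*-dKO against 30.8, 33.3 and 31.9 TPM in wt. All *tulp1*-dKO samples were above all wt samples, with *tulp1*-dKO sample 3 the highest. The log2 fold change was 0.37 (SE 0.13, 95% interval 0.05 to 0.69), with an unadjusted p of 0.0282 and an adjusted p of 0.225 (limma, Benjamini-Hochberg). Without *tulp1*-dKO sample 3 it was 0.22, with an unadjusted p of 0.0565. *tfr1a* (ENSDARG00000101322), the receptor that zebrafish red cell precursors need for iron uptake, had 8.76, 8.42 and 7.97 TPM in *tulp1*-dKO against 4.99, 8.55 and 4.71 TPM in wt. Wt sample 2 lay among the *tulp1*-dKO samples and the other wt samples lay below them. The log2 fold change was 0.51 (SE 0.23, 95% interval −0.03 to 1.05, adjusted p = 0.325), and without wt sample 2 it was 0.78 with an adjusted p of 0.0806. Of the TPM of both receptors, *tfr1a* held 19.1%, 18.3% and 13.6% in *tulp1*-dKO and 13.9%, 20.4% and 12.9% in wt, so the groups overlapped in this share. Erythrocyte markers, relevant to *tfr1a*, summed to 4982 to 6101 TPM in *tulp1*-dKO and 5164 to 7722 TPM in wt, with 0 of 15 changed and 13 of 15 log2 fold changes below 0, and their part in the *tfr1a* values was not tested.

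For iron transport in plasma, *tfa* (ENSDARG00000016771), a secreted iron carrier made mainly by the liver, had 316, 536 and 576 TPM in *tulp1*-dKO against 387, 484 and 421 TPM in wt. The lowest and the 2 highest values were *tulp1*-dKO samples, and the groups overlapped. On the log2 scale the difference was 0.10 (SE 0.22, 95% interval −0.42 to 0.63, adjusted p = 0.862). For iron export, *slc40a1* (ENSDARG00000000241), which encodes ferroportin, had 21.0, 18.5 and 22.4 TPM in *tulp1*-dKO against 20.1, 23.0 and 20.5 TPM in wt. The groups lay over each other. Its log2 fold change was −0.04 (SE 0.11, 95% interval −0.31 to 0.22, adjusted p = 0.886).

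*cp* (ENSDARG00000010312), the gene of the multicopper ferroxidase ceruloplasmin, had 9.10, 17.9 and 20.1 TPM in *tulp1*-dKO against 9.95, 9.98 and 9.86 TPM in wt. *tulp1*-dKO samples 2 and 3 were well above every wt sample, and *tulp1*-dKO sample 1 was just below them. The coefficient of variation was 37.1% in *tulp1*-dKO and 0.629% in wt. The log2 fold change was 0.58 (SE 0.28, 95% interval −0.09 to 1.24, limma adjusted p = 0.359). Without *tulp1*-dKO sample 1 the log2 fold change was 0.93 (SE 0.11) and the limma adjusted p was 0.0261. That passed the adjusted p but fell short of the 2-fold minimum, so *cp* was not called changed there either. Over the samples left out in turn, the adjusted p ran between 0.0261 and 0.618.

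The libraries also differed in liver transcripts, and the dissected heads held many of them. The 14 liver marker genes, among them the hepatocyte fatty acid binding protein gene *fabp10a*, summed to 3891, 6289 and 9355 TPM in *tulp1*-dKO and 5564, 7873 and 5765 TPM in wt. None of the 14 was changed, 11 of their log2 fold changes were below 0, none was at 0 in all samples, and *tulp1*-dKO sample 1 had the lowest sum and *tulp1*-dKO sample 3 the highest. Apolipoprotein genes in this list are also active in the yolk syncytial layer, and the list cannot tell these sources apart. Relative to the wt mean, on the log2 scale, *tulp1*-dKO samples 1, 2 and 3 stood at −0.44, 0.32 and 0.42 for *tfa*, at −0.12, 0.85 and 1.01 for *cp* and at 0.73, 1.81 and 1.76 for *fthl28*. The liver markers had medians of −0.82, −0.08 and 0.37 in these samples, so sample 1 was the lowest of the 3 for each of these genes and for the markers. In wt samples 1, 2 and 3 the liver marker medians were −0.2, 0.32 and −0.08. There *tfa* stood at −0.15, 0.17 and −0.03 and *fthl28* at −0.36, 0.21 and 0.15. *cp* hardly varied in wt, at 0.0, 0.01 and −0.01. The part of liver content in these values was not tested.

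In a calculation added after the values were seen, *tfa* and *cp* were divided by the liver marker sum of the same sample. Per 1000 TPM of liver markers, *tfa* had 81.3, 85.3 and 61.6 TPM in *tulp1*-dKO and 69.6, 61.5 and 73.0 TPM in wt, and the groups overlapped. *cp* had 2.34, 2.85 and 2.15 TPM per 1000 in *tulp1*-dKO and 1.79, 1.27 and 1.71 in wt. The means were 2.45 ± 0.361 and 1.59 ± 0.281 (SD, n = 3 each), and the groups did not overlap. Because the division was chosen once *tulp1*-dKO sample 1 was known to be low in both *cp* and the liver markers, it is a description that supports nothing about *cp*, and 3 against 3 samples could not give an exact permutation p below 0.1. Per 100 TPM of *tfa*, *cp* had 2.88, 3.34 and 3.50 TPM in *tulp1*-dKO and 2.57, 2.06 and 2.34 TPM in wt, with the same limit. Müller glia and astroglia, in which mammals also make ceruloplasmin, had marker sums of 2450 to 2744 TPM in *tulp1*-dKO and 2357 to 2593 TPM in wt, most of it from *fabp7a*, with 0 of 7 changed. Within this list, *gfap* was higher in every *tulp1*-dKO sample, at 21.27, 16.25 and 16.12 TPM against 10.54, 12.55 and 11.78 TPM in wt (adjusted p = 0.0954), and *glula* was lower in every one, at 385, 354 and 398 TPM against 486, 496 and 425 TPM in wt (adjusted p = 0.131), both named after their values were seen. The part of these cells in the *cp* values was not tested.

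**Figure D3:**
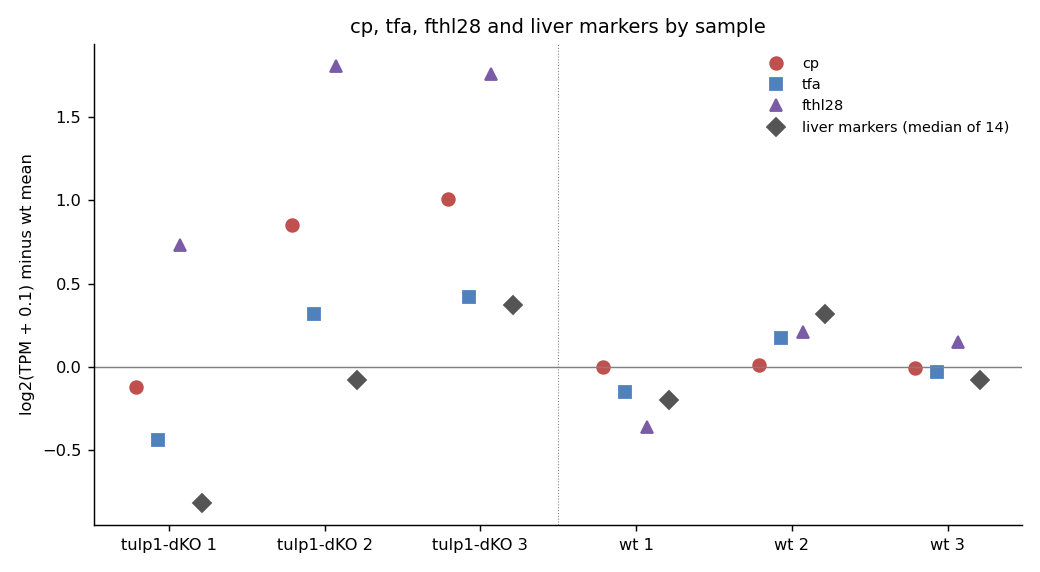
Log2 deviation from the wt mean in each of the 6 samples, *tulp1*-dKO left and wt right, for *cp*, *tfa*, *fthl28* and the median of the 14 liver markers. *tulp1*-dKO sample 1 is the lowest *tulp1*-dKO sample in all 4, at −0.12 for *cp*, −0.44 for *tfa*, 0.73 for *fthl28* and −0.82 for the liver markers.

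*hmox1a* (ENSDARG00000027529), a stress-inducible haem oxygenase gene that releases iron from haem and is a target of the transcription factor Nrf2, was the least abundant member. It had 7.46, 5.32 and 4.66 TPM in *tulp1*-dKO against 4.18, 5.55 and 2.39 TPM in wt. The highest value was a *tulp1*-dKO sample and the lowest a wt sample, but wt sample 2 lay among the *tulp1*-dKO samples. The fitted difference was 0.57 on the log2 scale (SE 0.32, 95% interval −0.20 to 1.33, limma adjusted p = 0.435). It was 0.24 without wt sample 3 and 0.37 without *tulp1*-dKO sample 1, and no sample left out gave more than 0.83. Macrophages and microglia, which take up and break down haem, had marker sums of 462 to 544 TPM in *tulp1*-dKO and 458 to 518 TPM in wt, most of it from *apoeb* (397 to 479 TPM and 404 to 464 TPM). Below that level, 4 of the 12 markers were higher in every *tulp1*-dKO sample without being changed, against 14.6% of all genes tested that were higher without overlap. With 12 markers this share rests on few genes. Among them, chosen after their values were seen, *mpeg1.1* had 6.34, 6.06 and 6.25 TPM in *tulp1*-dKO against 4.2, 5.16 and 4.29 TPM in wt (adjusted p = 0.163), and *csf1ra* had 9.24, 7.41 and 7.92 TPM against 6.25, 6.0 and 4.71 TPM (adjusted p = 0.158). Of the 12, 1 was changed, the macrophage gene *mfap4*, at 3.45, 3.43 and 4.66 TPM in *tulp1*-dKO against 11.3, 8.10 and 16.0 TPM in wt, while 9 of 12 log2 fold changes were above 0. The part of these cells in the *hmox1a* values was not tested.

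**Figure D4:**
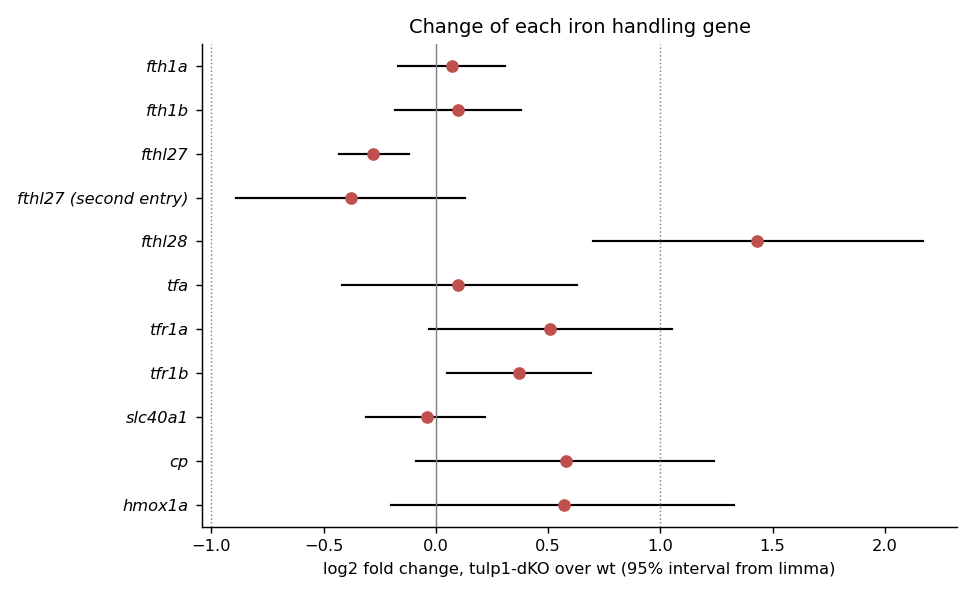
Log2 fold change of each iron handling entry, *tulp1*-dKO over wt, with its 95% interval from limma; the dotted lines mark a 2-fold change. *fthl28* at 1.43 is the only entry beyond a 2-fold change, and the intervals of *fthl28*, *tfr1b* and *fthl27* leave out 0 before adjustment for the number of genes tested.

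The wider iron pathway was read from 6 lists of other genes, covering ferritin handling, iron uptake, export and systemic control, iron sensing, haem breakdown and transport, and iron-sulfur clusters with mitochondrial iron. Of their 62 names, 54 were found, and of the 55 entries tested none was changed and none passed the adjusted p at any fold (limma). Before adjustment, p was 0.05 or less in 4 that were higher and 6 that were lower, together 10 of 55, against 17.1% of all genes. The groups did not overlap in 8 of 55 entries that were higher, against 14.6% of all genes, and in 5 that were lower, against 8.86%, so these counts were close to the background. The median log2 fold change was 0.08 over the 6 lists, from 0.00 for the 12 entries of haem breakdown and transport to 0.27 for the 5 of export and systemic control; it was 0.07 for ferritin handling, 0.08 for iron uptake and 0.10 both for iron sensing and for the 19 iron-sulfur and mitochondrial entries.

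In the uptake list, *meltf*, the gene of the membrane-anchored transferrin relative melanotransferrin, had 8.13, 11.1 and 17.7 TPM in *tulp1*-dKO against 5.69, 5.68 and 6.46 TPM in wt. Every *tulp1*-dKO sample was above every wt sample, and sample 3 was the highest. The fitted difference was 0.97 on the log2 scale (SE 0.27, limma adjusted p = 0.133). *cybrd1*, which encodes a ferric reductase, had 8.08, 8.74 and 9.51 TPM in *tulp1*-dKO against 13.2, 10.3 and 14.9 TPM in wt. It was lower in all *tulp1*-dKO samples, by −0.53 on the log2 scale (SE 0.16, adjusted p = 0.16). The metal transporter gene *slc39a13* had a log2 fold change of 0.36 (adjusted p = 0.275), without overlap.

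In the systemic control list, *hamp*, the gene of hepcidin, the liver hormone that removes ferroportin from the cell surface, had 6.06, 9.86 and 13.1 TPM in *tulp1*-dKO against 19.2, 15.8 and 12.7 TPM in wt. The groups overlapped only through *tulp1*-dKO sample 3 and wt sample 3. The fitted difference was −0.76 on the log2 scale (SE 0.29, adjusted p = 0.243), and −0.46 without *tulp1*-dKO sample 1. Like *tfa* and *cp*, *hamp* was lowest in *tulp1*-dKO sample 1 and highest in sample 3 among the *tulp1*-dKO samples, as were the liver marker sums. Among the wt samples, *hamp* was instead highest in sample 1, which had the lowest liver marker sum. The part of liver content in the *hamp* values was not tested. The *hamp* regulator *hjv* (hemojuvelin) had 3.0, 3.18 and 3.0 TPM in *tulp1*-dKO against 1.93, 2.73 and 2.26 TPM in wt. The groups did not overlap, and the fitted difference for *hjv* was 0.41 on the log2 scale (limma adjusted p = 0.339). *hephl1a*, a gene of the ceruloplasmin family, had a log2 fold change of 0.63 (adjusted p = 0.408). The iron sensor genes *aco1* and *ireb2*, whose proteins bind iron responsive elements, had log2 fold changes of 0.14 (adjusted p = 0.627) and 0.06 (adjusted p = 0.891).

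In the haem list, the main difference was in a haptoglobin entry, *hp* (ENSDARG00000051890), whose product binds free haemoglobin, with 1.81, 1.86 and 2.41 TPM in *tulp1*-dKO against 3.04, 3.06 and 2.82 TPM in wt. It was lower in every *tulp1*-dKO sample, by −0.54 on the log2 scale (SE 0.19, adjusted p = 0.212). A second, more abundant *hp* entry (ENSDARG00000095807) had 24.9, 37.9 and 54.1 TPM in *tulp1*-dKO against 32.8, 53.3 and 33.1 TPM in wt, with overlap. The haem oxygenase gene *hmox2b* and the biliverdin reductase gene *blvrb* both had log2 fold changes of 0.24 (adjusted p = 0.328 and 0.425). In the mitochondrial list, the mitoferrin gene *slc25a28* and the iron-sulfur assembly gene *isca2* were lower in every *tulp1*-dKO sample (log2 fold changes −0.34 and −0.38), and *iba57*, which acts late in the same assembly, was higher (0.31), with adjusted p of 0.241, 0.215 and 0.179.

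A list of Nrf2 target genes, relevant to *hmox1a* and ferritin, held 11 tested entries. None was changed and 2 were higher with a p of 0.05 or less before adjustment, 2 of 11 entries against 17.1% of all genes in either direction. There were 9 log2 fold changes above 0 and 2 below, with a median of 0.25 against 0.05 for all genes tested. *srxn1*, which encodes the peroxiredoxin-repairing enzyme sulfiredoxin, had 14.1, 9.53 and 8.24 TPM in *tulp1*-dKO against 7.47, 4.56 and 6.97 TPM in wt. All *tulp1*-dKO samples were above all wt samples, and sample 1 was the highest, as for *hmox1a*. Its log2 fold change was 0.73 (SE 0.26, adjusted p = 0.215), that of the pentose phosphate pathway gene *taldo1* was 0.23 (adjusted p = 0.255) and that of the quinone reductase gene *nqo1* was 0.25 (adjusted p = 0.302).

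**Figure D5:**
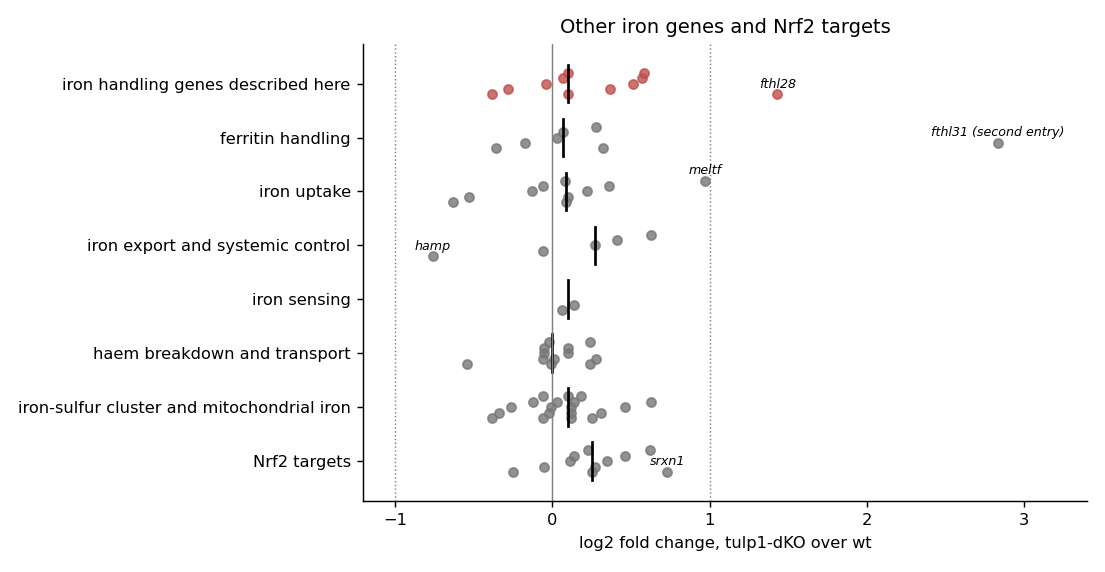
Log2 fold change, *tulp1*-dKO over wt, of every tested entry in the iron handling genes, the 6 other iron lists and the Nrf2 target list; points are entries, vertical bars are list medians and the dotted lines mark a 2-fold change. List medians lie between 0.00 and 0.27, and the entry farthest to the right, the second *fthl31* entry, includes a wt sample listed at 0, so that its position depends on the pseudocount.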

How the data were processed

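RNA-seq of 4 dpf heads was analysed from 3 *tulp1*-dKO and 3 wt samples, grouped by the genotype label. Reads were mapped with HISAT2 to GRCz11 and counted with RSEM, and the authors deposited TPM per gene. The authors tested counts with DESeq2, which TPM values cannot enter. Read depth is unknown.

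Entries averaging 0.5 TPM or more across the 6 samples, 22824 in number, were kept. Their log2(TPM + 0.1) values were compared between *tulp1*-dKO and wt with limma (version 3.58.1 in R 4.3.3, lmFit and a trended eBayes), and p-values were adjusted over all of them by the Benjamini-Hochberg method. The fit was first run on simulated data with planted changes larger than the fold change of any member. That run cannot show how well changes of the members' size are found. The authors' thresholds were kept (adjusted p of at most 0.05, fold change of at least 2). At these thresholds the fit here called 302 genes changed, 83 higher and 219 lower in *tulp1*-dKO. That is fewer than the paper reports with DESeq2, so a gene not called here may still be among the authors' calls. Fold changes on this scale can understate changes of low genes, and they depend strongly on the pseudocount where a sample is at 0. The second *fthl31* entry had a log2 fold change of 2.83 in the main fit and 1.64 with a pseudocount of 1 TPM. Entries sharing a name were kept apart. The members, the iron, Nrf2 and marker lists and the tests were chosen with earlier results of these data known, and the lists were written from general knowledge. Named besides the members are the 3 genes of each other list with the smallest p, and further entries that share a name or cluster with a ferritin or *hp*, chosen after their values were seen. Of each marker list, the sum is given. Single marker genes are also named, to define a list, to show what makes up its sum or to show a difference. Most of them were chosen after their values were seen.

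Remaining marker sums were 235 to 312 TPM in *tulp1*-dKO and 246 to 334 TPM in wt for retinal pigment epithelium (0 of 7 changed), 1687 to 2004 TPM and 1842 to 1979 TPM for neurons (0 of 10 changed), and 29.5 to 42.9 TPM and 8.43 to 36.7 TPM for trunk and tail (0 of 3 tested changed). The largest part of the trunk and tail sum was 1 *evx1* entry (ENSDARG00000099365), with 25.5, 38.7 and 28.1 TPM in *tulp1*-dKO against 32.3, 28.3 and 3.69 TPM in wt. *hoxa13a*, too low to be tested, had 0.15, 0.06 and 0 TPM in *tulp1*-dKO against 0.49, 0.56 and 0.64 TPM in wt. *hoxc13a* and *hoxc12a* were at 0 in all samples, and the groups overlapped in the other *hox* genes of this list.

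Replicate numbers were checked for pairing: deviations of same-numbered samples correlated at 0.03, too little to pair them. Alternatives covered each sample left out in turn, pseudocounts of 1 and 0.5, a filter at 2 TPM or none, quantile and median ratio scaling, rescaling after the 50 genes of highest TPM were set aside, an untrended or robust eBayes, a replicate block and values summed by name. Protein and promoter sequences were not used here. Python 3.11.15 was used for tables (pandas 2.3.3) and figures (matplotlib 3.10.9).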

Additional observations from a re-analysis of the deposited data

How the results depend on the processing

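Of 186 fold changes computed for the 11 iron handling entries under the alternatives, 5 had the opposite sign, all in *fth1a*, *tfa* or *slc40a1* and all when 1 sample was left out. Over the samples left out in turn, the log2 fold change ran from −0.04 to 0.16 for *fth1a*, from −0.06 to 0.37 for *tfa*, from −0.11 to 0.03 for *slc40a1* and from −0.07 to 0.16 for *ireb2*, the only one of the 20 other entries run under the alternatives that changed sign. The same omissions gave 1.25 to 1.79 for *fthl28* and 0.36 to 0.93 for *cp*, each past the adjusted threshold, among these omissions, only without *tulp1*-dKO sample 1. The number of members changed was 0 to 1 and the number past the adjusted p at any fold was 0 to 2. With the unadjusted p and the 2-fold minimum, 1 member (*fthl28*) was counted.

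With the replicate number as a block, the log2 fold change of *fthl28* was 1.43 with an adjusted p of 0.0469 (limma, Benjamini-Hochberg), so that 1 member was changed and 1 passed the adjusted p at any fold. The samples were not treated as paired in the main fit, because deviations of same-numbered samples correlated only weakly. Each sample still correlated best with its own number, and whether the numbers mark pairs is not known. Over all genes, the block gave 134 changed against 302, and leaving out 1 sample gave 104 to 243.

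The ratio of summed ferritin TPM stayed between 0.94 and 1.05, and no other iron gene was changed under any alternative run. Median ratio scaling moved the median of all genes by −0.05 (log2). Entries that share a name have no value of their own once summed. With 3 samples a group and unknown depth, differences such as those of *tfr1a*, *cp* and *hmox1a* lie within the spread between samples, which does not show that the groups were alike.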
